A study of Mus musculus with 6 samples.

Results

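The cytosolic ribosomal protein genes encode the proteins of the large and the small subunit of the ribosome. Members were found by symbol: Rpl or Rps with a number and at most a short paralog suffix, the stalk genes Rplp0 to Rplp2, and Rpsa, without the Rps6k kinases and the rows marked as pseudogenes. This gave 84 of the 24419 genes in the deposited table, 51 of the large and 33 of the small subunit. RNA was sequenced from neuron-enriched cells of male mouse cortex at the border of an infarct, 4 days after the middle cerebral artery was blocked for 60 minutes. Padi4 flox/flox mice without Cre gave the 3 libraries labelled control. Those labelled cKO, also 3, were from Padi4 flox/flox mice that carried Slc17a7-cre and Slc32a1-cre, which act in glutamatergic and GABAergic neurons. All 6 libraries therefore carried the floxed allele and came after stroke, with ages not given in the sources used here. Cells were freed with pronase and sorted for the neuronal surface marker Thy1 and against ACSA2 (astrocytes), CD31 (endothelium), CD45 (leukocytes) and O4 (oligodendrocyte lineage). Levels are deposited CPM, rescaled per library, and are called values. Values are given for replicates 1, 2 and 3 in that order, the label control first.

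Several facts of the libraries bear on what follows. Recovered depth ran from 10094145 to 24056755 reads, and the 2 libraries numbered 2 had the fewest detected genes, 15261 in control replicate 2 and 14042 in cKO replicate 2, against 16818 to 17891 in the other 4. The targeted gene Padi4 had 0 reads in all 3 libraries labelled control and 0, 3 and 12 reads under the label cKO, so it went against the labels, and every direction below is between libraries labelled control and libraries labelled cKO. The labels call the cells neurons, but 10 oligodendrocyte markers summed to 11309 to 33288 and 12 neuronal markers to 1396 to 7055, with the oligodendrocyte sum the higher in each library. Levels are averages over mixed cells, so fewer cells of a type and less RNA per cell cannot be told apart.

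A ribosome holds a copy of nearly every ribosomal protein beside its ribosomal RNA, and cells make the proteins in matched amounts. The small subunit reads the messenger RNA, and the large subunit joins amino acids and passes the new chain through its exit tunnel. Vertebrate ribosomal protein messenger RNAs typically begin with a C followed by a run of pyrimidines, the 5′ terminal oligopyrimidine tract, through which the kinase complex mTORC1 and the RNA-binding protein Larp1 control their translation. In neurons, ribosomes work in the cell body and also in dendrites and axons, where local protein synthesis takes part in plasticity and repair.

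Start-site sequences are shown because this tract is a feature that transcripts of the family are known to share. Its part in the levels measured here was not tested. RefSeq promoter sequences of build GRCm38.p6, to which mm10 belongs, were matched for 63 of the 84 members, with 75 annotated starts. Each window runs from 15 bases before to 15 bases from the annotated start on. Capitals mark the longest run of a C followed by at least 4 pyrimidines (C or T) that begins within 10 bases of the start. The base before that C could not be C or T, so pyrimidine stretches that open with T were left out. A run so defined was found at 40% of the member starts and at 22.9% of all 32851 starts in the table. The first 5 windows hold a run within 2 bases of the start and the last 3 hold none.
Rps6, chr4:86857353-86857382, minus strand: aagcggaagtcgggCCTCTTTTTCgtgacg
Rps18, chr17:33955651-33955680, minus strand: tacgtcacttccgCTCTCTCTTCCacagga
Rpl18, chr7:45718056-45718085, plus strand: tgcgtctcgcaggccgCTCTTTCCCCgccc
Rps27, chr3:90213634-90213663, minus strand: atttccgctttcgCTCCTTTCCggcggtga
Rps27l, chr9:66946071-66946100, plus strand: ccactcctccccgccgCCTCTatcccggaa
Rplp0, chr5:115559452-115559481, plus strand: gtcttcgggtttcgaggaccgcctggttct
Rpl4, chr9:64173372-64173401, plus strand: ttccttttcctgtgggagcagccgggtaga
Rpl26, chr11:68901551-68901580, plus strand: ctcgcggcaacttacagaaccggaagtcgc
The run depends on where the annotation puts the start, so a window without capitals says only that no such run begins near that annotated base. Over 250 bases before to 50 bases after each start, on both strands and whether or not matches overlapped, CCGGAAG, the core bound by ETS factors such as GABP, was in 36% of member windows and in 8.86% of all windows. AAGATGGC, a YY1 motif, was in 10.7% and 2.75%, and TATAAA, the TATA box, in 9.33% and 13.6%. TGACGTCA, the cyclic AMP response element, was in 6.67% and 1.79%. These are matches of letters, not sites shown to be bound.

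Members differed widely in level, though the middle of them lay close together per kilobase, and a few were almost absent from the table. Of the 84, 75 had a mean value of at least 20 over the 6 libraries, from 22.7 to 402 with a median of 88.6. Per kilobase of the main annotated transcript their means ran from 24.2 to 476, and the middle of them, from the lower to the upper quartile, from 92.2 to 154 with a median of 115. Rpl41, the smallest ribosomal protein, was highest per kilobase at 476. Rplp1, a protein of the stalk that recruits elongation factors, followed at 408. Rpl32 at 271, Rps15 at 268, Rpl4 at 262 and Rpl23a at 223 came next, all per kilobase.

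**Figure D1:**
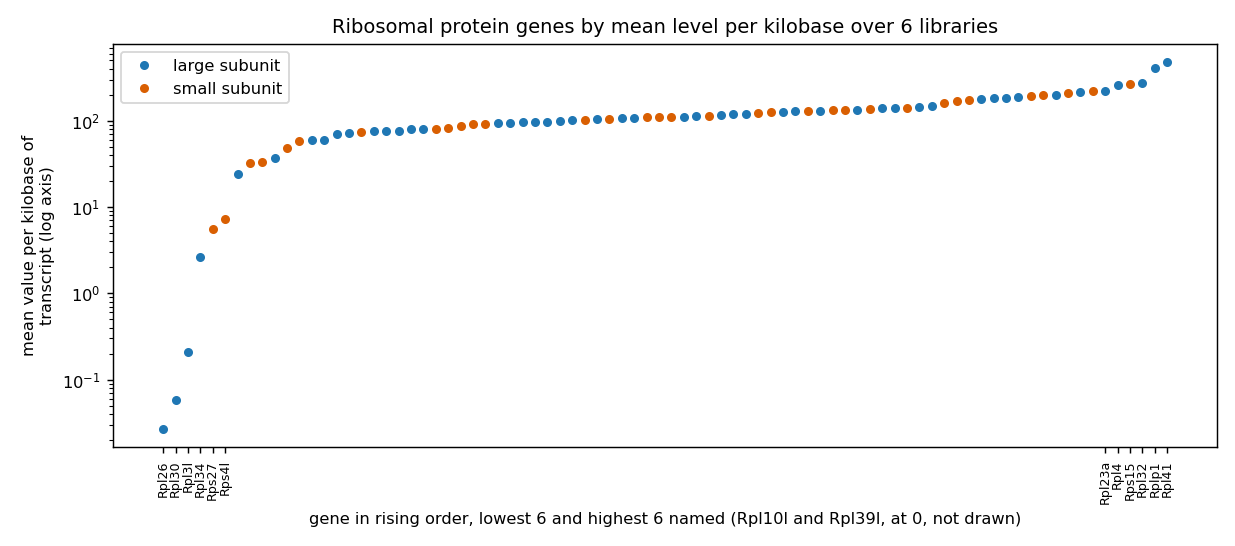
Mean value per kilobase of transcript (log axis) for each ribosomal protein gene with reads, over the 6 libraries, in rising order, with the ends named and coloured by subunit. Most genes lie between 24.2 and 476, and Rpl26, Rpl30, Rpl3l, Rpl34, Rps27 and Rps4l fall far below them.

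The sum of the members differed more between libraries of the same label than between the labels. Summed values were 9305, 5288 and 10528 under the label control and 9742, 4036 and 8561 under the label cKO. The libraries numbered 2 were the lowest of each label and lower than every other library. As a share of all reads, the members took 0.949%, 0.55% and 1.02% under the label control and 0.975%, 0.396% and 0.845% under the label cKO. Counting error was small beside this, with exact binomial 95% intervals of 0.392% to 0.4% in cKO replicate 2 and 0.943% to 0.955% in control replicate 1, which cover counting error only. The group means of the summed value were 8374 ± 2741 for the label control and 7446 ± 3012 for the label cKO (SD, n = 3 each).

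The low levels in the libraries numbered 2 ran through nearly the whole family. In 71 of the 79 members that passed the filter on low values, both of these libraries lay below the other 4, and in 0 did both lie above. The same held below for 18.8% of all tested genes, 14796 in number, and above for 11.7%. Relative to each gene's mean log2(value + 1) over the 6 libraries, the median member was at 0.34, -0.48 and 0.54 under the label control and at 0.43, -0.91 and 0.25 under the label cKO. The median tested gene stayed between -0.10 and 0.10 in the same libraries. cKO replicate 2 held the lowest value of 57 members and control replicate 2 that of 21, and control replicate 3 held the highest value of 45.

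**Figure D2:**
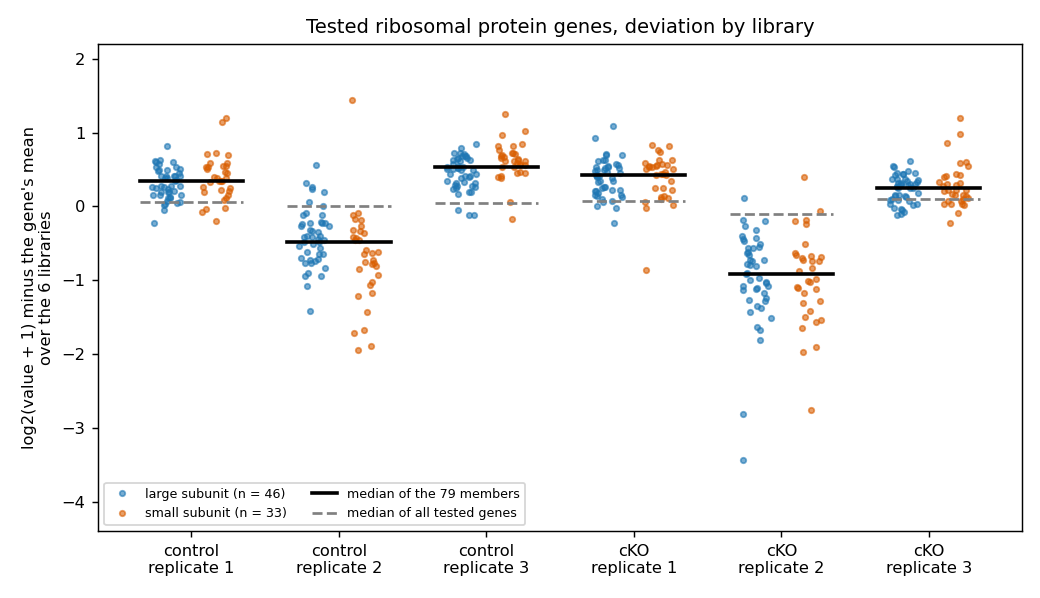
Each point is 1 of the 79 tested ribosomal protein genes, drawn as its log2(value + 1) minus its mean over the 6 libraries, by library and subunit. Black bars are the member medians, at -0.48 and -0.91 in control and cKO replicate 2 and between 0.25 and 0.54 in the other 4 libraries, and dashed bars are the medians of all tested genes.

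Some other measures moved with these 2 libraries. Of all other tested genes, those with a main transcript under 1000 bases had a median deviation of -0.17 in control replicate 2 and -0.41 in cKO replicate 2, against 0.01 and -0.08 for longer ones. Of the 84 members, 64 had a main transcript that short, and the member medians of -0.48 and -0.91 were lower than those of the other short genes. The 10 mural cell and fibroblast markers summed to 464 in control replicate 2 and 181 in cKO replicate 2, below the range of 678 to 4844 elsewhere, and control replicate 3, where most members peaked, was at 678. All 10 of those markers had reads in every library, except Lum at 0 in cKO replicate 2. Neuronal markers were at 3759 and 3943 in the same libraries, inside the range of 1396 to 7055 of the other 4. Oligodendrocyte markers, at 22060 and 21050 against 11309 to 33288, were also inside that of the other 4. So were oligodendrocyte precursor markers, at 1284 and 1121 against 1079 to 1728. Endothelial markers, like the mural ones, were lowest in the libraries numbered 2, at 43.5 and 45.6 against 65.6 to 135 elsewhere, with Cldn5 at 0 in both. Astrocyte markers, at 1074 and 1778 against 557 to 1018, and microglial markers, at 43.3 and 51.9 against 16.9 to 37.8, were highest there, with the microglial genes C1qa and Tmem119 at 0 in both and C1qc at 0 in cKO replicate 2. The part of transcript length, of the number of detected genes and of other cells in the result was not tested.

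Among the other 4 libraries the members kept close proportions. For the 75 members with a mean of at least 20, the highest of these 4 values was a median of 1.4 times the lowest, and at most 1.98 times. Between control replicate 1 and cKO replicate 1, 74 of the 75 lay within 1.5 times of each other, with a median ratio of 1.03. Between control replicate 3 and cKO replicate 3 it was 66 of 75, with a median ratio of cKO to control of 0.806. Within a label the counts were alike. They were 69 of 75 for control replicate 3 to control replicate 1, with a median ratio of 1.15. For cKO replicate 3 to cKO replicate 1 it was 67 of 75, with a median ratio of 0.891. These measures were taken for the members only, so they do not say whether other genes of like level were as close. Summed values of the large subunit divided by those of the small subunit were 1.58, 1.80 and 1.49 under the label control and 1.61, 1.74 and 1.68 under the label cKO. The libraries numbered 2 had the highest such ratios of each label.

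The stalk, which recruits elongation factors to the large subunit, held genes with unlike spread across the libraries. Rplp0, its base protein, was at 223, 79.9 and 279 under the label control and at 208, 70.8 and 184 under the label cKO, with both libraries numbered 2 well below the rest. Rplp1 was at 167, 140 and 276 and at 218, 146 and 275 in the same order, so the libraries numbered 2 stood less far below the rest. Rplp2, the partner of Rplp1, was at 58.3, 48.0 and 76.0 and at 60.9, 23.8 and 65.2. Rpl12, at the base of the stalk, was at 119, 77.2 and 108 and at 130, 39.3 and 99.8. In all 4 genes the values of the labels overlapped.

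The 2 members of highest mean, Rpl4 and Rpl3, belong to the exit tunnel and the catalytic core. Rpl4, which lines the tunnel, is a protein-coding gene on chromosome 9, and it had the highest value of the family, at 470, 273 and 529 under the label control and at 454, 263 and 425 under the label cKO. Rpl3, near the peptidyl transferase centre, was at 304, 198 and 304 and at 337, 190 and 293, and was among the 4 least variable members, with an SD of log2(value + 1) of 0.35 over the 6 libraries. Rpl10, which joins the large subunit late in its assembly, was at 195, 81.3 and 181 and at 190, 66.1 and 166. Each of these genes had its lowest values in the libraries numbered 2, and the labels overlapped. At the tunnel rim, Rpl19 was at 188, 122 and 236 and at 192, 50.5 and 185. Rpl23a, a docking site of factors that meet the new chain, was at 156, 68.2 and 156 and at 182, 78.8 and 108. Rpl23a was thus a member in which control replicate 2 was the lowest library.

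Rpl5 and Rpl11 enter the large subunit together with 5S ribosomal RNA, and when assembly fails they bind Mdm2, the inhibitor of p53. Rpl5 was at 239, 92.2 and 193 under the label control and at 229, 97.8 and 143 under the label cKO. Rpl11 was at 80.7, 47.1 and 70.8 and at 82.6, 34.5 and 61.7. Both genes followed the family, with no separation of the labels.

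On the small subunit, the genes at the path of the messenger RNA and the S6 kinase substrate showed the same order of libraries. Rps6, whose protein is phosphorylated by S6 kinase downstream of mTORC1, was at 255, 129 and 256 under the label control and at 252, 58.0 and 218 under the label cKO. Rps2, at the entry of the messenger RNA, was at 157, 53.8 and 194 and at 166, 44.0 and 147. Rps3, also at the entry, was at 115, 86.1 and 203 and at 102, 56.2 and 106, and its high value in control replicate 3 stood alone. Rpsa, at the exit of the messenger RNA and also known as the laminin receptor, was at 231, 146 and 278 and at 292, 124 and 189. Rps26, which also lies at that exit, was at 136, 125 and 203 and at 151, 83.5 and 170.

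The 4 most variable members over the 6 libraries were Rpl36a, Rps27a, Rps27l and Rpl37a, and the libraries numbered 2 set their spread. Rps27a, made as a fusion to ubiquitin, was at 117, 21.0 and 121 under the label control and at 74.6, 6.57 and 99.9 under the label cKO. It was far lower in both libraries numbered 2. Rpl36a was at 60.3, 40.5 and 56.0 and at 72.9, 2.22 and 50, and Rpl37a at 78.2, 64.3 and 73.8 and at 98.9, 6.46 and 70.3. In these 2 genes cKO replicate 2 alone was far below the rest. Their SDs of log2(value + 1) were 1.70, 1.63, 1.5 and 1.39 in the order named.

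The 8 tested members that did not follow the order of libraries were Rpl7l1, Rpl9, Rpl23, Rpl29, Rpl35a, Rps4l, Rps21 and Rps27. Rpl29 was at 55.8, 79.6 and 80.4 under the label control and at 61.5, 16.2 and 66.8 under the label cKO, so control replicate 2 was not low for it. Rps21 was at 35.5, 19.1 and 59.6 and at 48.9, 54.1 and 43.3, with control replicate 2 lowest and cKO replicate 2 second highest. Rpl35a was at 57.1, 25.8 and 54.2 and at 47.3, 48.4 and 43.7. Low values in the libraries numbered 2 were thus usual in the family but not universal. Rpl21 and Rpl15, with SDs of 0.21 and 0.25, kept the order but with small steps: Rpl21 was at 92.5, 82.9 and 106 and at 96.4, 70.1 and 83.6.

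The comparison of the labels asked which ribosomal protein transcripts differ when Padi4 is targeted in neurons. No member passed limma at an adjusted p under 0.05, 0 higher and 0 lower of 79 tested, where 0% of all 14796 tested genes were called in either direction. No member had an unadjusted limma p under 0.05 either, against 126 of all 14796 tested genes. That share is so small that 0 of 79 does not set the members apart. On the recovered reads edgeR called 0 members and 0% of all genes, and DESeq2 called 0 members and 0.00676% of all genes, which is 1 gene. The fitted difference was below 0 in 62 members and above 0 in 17, against 7694 and 7102 of all tested genes. The median log2 difference was -0.20 in the members, against -0.02 over all tested genes. In 0 of the 79 members did all libraries of the labels separate, with cKO lower in 2.26% and higher in 2.45% of all tested genes. Without cKO replicate 2 the median was 0.20, with 11 of 79 below 0, and without control replicate 2 it was -0.54, so leaving out only 1 of these libraries moved it in opposite directions. It was -0.08 without control replicate 1, -0.01 without control replicate 3, -0.44 without cKO replicate 1 and -0.32 without cKO replicate 3. Without both libraries numbered 2 (chosen after seeing the data) it was -0.12 with 58 of 79 below 0. Over all 14796 tested genes the median in that setting was 0.02, with 7085 below 0.

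Of the members lower in libraries labelled cKO, Rps27 had the smallest unadjusted p, at values of at most 5.59 and from 0 to 76 reads. It is described below with the genes of low value. Rpl23, at 61.1, 69.6 and 95.9 under the label control and 61.1, 31.7 and 62.0 under the label cKO, had a log2 difference of -0.58 (SE 0.37, unadjusted p = 0.153, limma adjusted p = 0.9996). Only cKO replicate 2 stood clearly below the controls. Rpl9 was at 62.3, 55.0 and 75.2 and at 58.5, 27.7 and 50.7, a log2 difference of -0.54 (SE 0.37). Rpl22 and Rps3 had log2 differences of -0.73 (SE 0.56) and -0.57 (SE 0.40), and Rpl29 of -0.79 (SE 0.51). Without both libraries numbered 2, the log2 difference of Rpl29 was -0.06 and that of Rps3 -0.55.

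On the higher side no member had an unadjusted p under 0.28. Rps4l, annotated as a transcribed processed pseudogene in spite of its symbol, had a log2 difference of 0.83 (SE 0.74) at values of at most 14.4. Rps21 had a log2 difference of 0.48 (SE 0.44). Rps13, of the small subunit, was at 69.4, 12.8 and 86.9 under the label control and at 70.3, 45.3 and 79.3 under the label cKO, a log2 difference of 0.54 (SE 0.63). The low value of control replicate 2 set that difference, which was -0.06 without both libraries numbered 2. Rps15a and Rpl35 had log2 differences of 0.24 and 0.18. For each of these genes the difference was smaller than 2 of its standard errors.

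**Figure D3:**
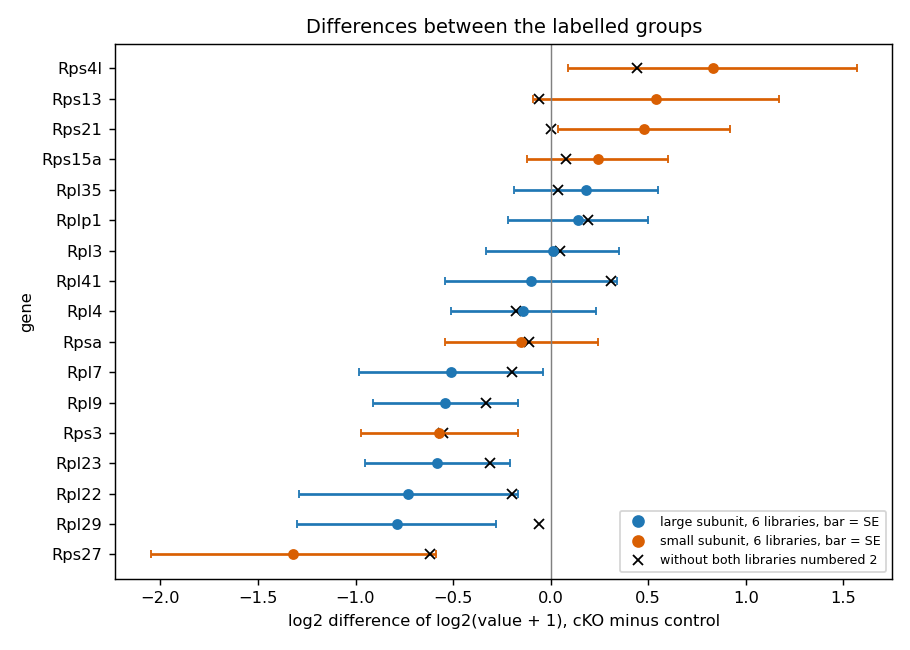
Log2 difference of log2(value + 1), libraries labelled cKO minus libraries labelled control, with its SE, for the 6 members of highest mean and those named for the smallest unadjusted p in each direction; crosses leave out both libraries numbered 2. Rps21, at 0.48, and Rpl29, at -0.79, come close to 0 without these libraries.

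Paralogs of ribosomal proteins that are known mainly from other tissues were at or near 0. Rpl10l and Rpl39l, known from testis, had 0 reads in all 6 libraries, and Rpl3l, known from heart and skeletal muscle, had 12, 0 and 9 reads under the label control and 0, 0 and 3 under the label cKO. Counterparts Rpl10, Rpl39 and Rpl3 had mean values of 146.5, 59.2 and 271. Rpl22l1, a paralog of Rpl22, was at 39.7, 23.5 and 27.3 and at 48.6, 11.6 and 46.2. It lay below Rpl22, at 88.6, 58.0 and 82.5 and at 90.4, 15.9 and 61.3, in each library. Per kilobase their means were 59.5 for Rpl22l1 and 139.5 for Rpl22.

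Rpl7l1 and Rpl21 had the lowest SDs of log2(value + 1) of the tested members, 0.21 each. Rpl7l1 was at 37.7, 37.1 and 30.3 under the label control and at 26.8, 27.2 and 31.1 under the label cKO, while Rpl7 was at 280, 170 and 284 and at 288, 76.4 and 211. The low level of Rpl7 in the libraries numbered 2 was thus not seen in Rpl7l1. Rps27l, a target of p53, was at 26.1, 2.28 and 23.7 and at 20.8, 2.12 and 21.1, low in both libraries numbered 2. Rps4x, the X-linked gene whose paralog row is Rps4l, was at 200, 135 and 230 and at 178, 67.0 and 170.

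**Figure D4:**
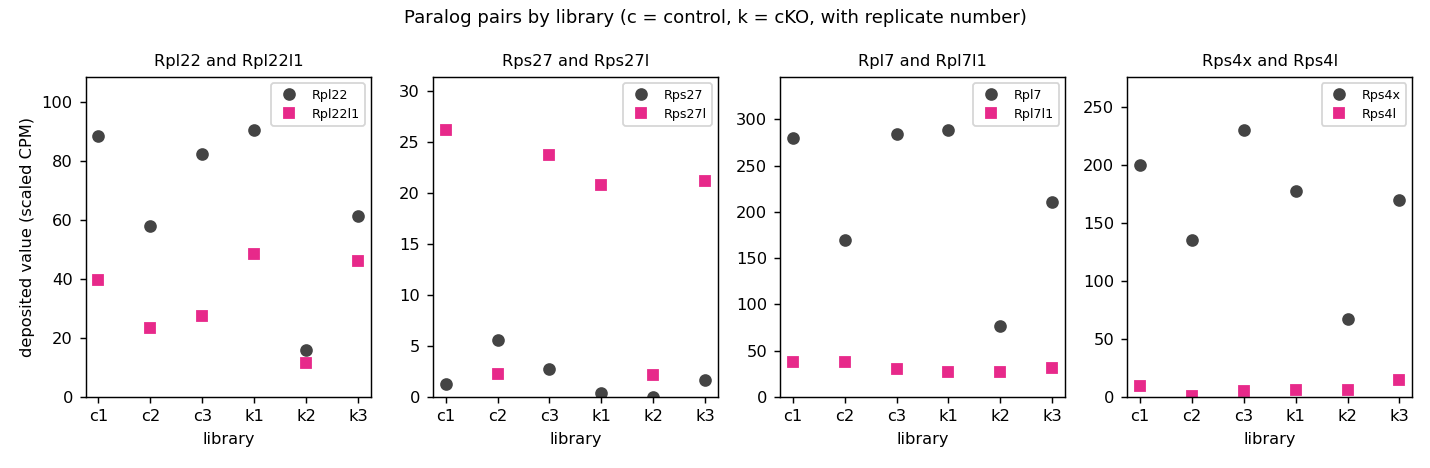
Deposited value in each library (control 1 to 3, then cKO 1 to 3) for 4 pairs of paralogs, each panel with its own axis from 0. Rpl22l1 stays below Rpl22 in every library, Rps27l is above Rps27 except in control replicate 2, and Rpl7l1 lies between 26.8 and 37.7 while Rpl7 runs from 76.4 to 288.

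Some ribosomal proteins that every cell uses had low values or were listed at 0. Rpl26, at the tunnel rim, had 2 reads, both in cKO replicate 3. Rpl30, also of the large subunit, had 1 read in control replicate 3 and 3 in cKO replicate 1. Rpl34 was at 1.29, 0.147 and 2.39 under the label control and at 1.97, 0 and 1.81 under the label cKO. Rps27 (chromosome 3, 90212522 to 90213651, minus strand, GRCm38) was at 1.29, 5.59 and 2.72 and at 0.336, 0 and 1.68, a log2 difference of -1.32 (SE 0.73, unadjusted p = 0.0977, limma adjusted p = 0.9996) that was -0.62 without both libraries numbered 2. In cKO replicate 2 neither Rps27 nor Rpl34 had a read.

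Ribosomal protein genes have many processed copies, so the share of each main transcript's 50-base words that also occur in transcripts of other annotated genes was computed. Words were matched on both strands, so genes that overlap a member at its own locus counted as well. The share was 98.6% for Rps27, 76.4% for Rpl30, 71.3% for Rpl26 and 50.6% for Rpl34. Among the 75 members with a mean of at least 20 it had a median of 60% and ran from 0% to 95.1%, the last in Rpl35. Of the exon bases of Rpl35, 66.2% overlapped Arpc5l or Wdr38 on the opposite strand, and such overlap was 20.4% for Rpl30. The shares of these 2 genes therefore do not compare processed copies alone. The sources used here do not say how reads with several matches were counted, and the part of this in the low levels was not tested. Of the pseudogene and retrotransposed rows outside the rule, Rpl14-ps1 was highest. It was at 47.4, 32.2 and 55.6 under the label control and at 46.2, 32.6 and 47.1 under the label cKO. The libraries numbered 2 were thus its lowest, as for most members. Rpl37rt was at 24.8 in cKO replicate 2 and at 5.81 to 19.2 elsewhere, Rps19-ps3 at 9.29 and at 0 to 1.92, and Rps15a-ps4 at 4.14 and at 0.048 to 1.38. These 3 copy rows, with 246, 92 and 41 reads there, were thus highest in the library where most members were lowest. Rps15a-ps6, with 1 read in cKO replicate 2 and values of 0.278 to 7.28 elsewhere, was lowest in that library. Rpl31-ps12 had 0 reads in both libraries numbered 2 and was at most 1.05 elsewhere. Rps27rt, Rpl34-ps1 and Rplp2-ps1 were listed at 0 in all 6 libraries.

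The 4 cytosolic ribosomal protein genes that the symbol rule leaves out followed the family. Gnb2l1, also named Rack1, a scaffold on the small subunit, was at 208, 129 and 250 under the label control and at 187, 76.3 and 210 under the label cKO. Fau was at 63.8, 49.2 and 70.0 and at 63.5, 42.7 and 76.6, and Rpl36al had a log2 difference of -0.15 (SE 0.60). In all 4 both libraries numbered 2 were the lowest.

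Genes that build ribosomes or act on them were counted for the same order of libraries. Both libraries numbered 2 were the lowest in 7 of 11 tested elongation and termination factors, 17 of 35 initiation factors, 22 of 80 ribosome assembly factors and 5 of 15 genes of the RNA polymerase I machinery, which transcribes ribosomal RNA. Eef1a1, which encodes an elongation factor, was at 2745, 1610 and 4081 under the label control and at 2877, 1178 and 1981 under the label cKO. In the mitochondrial ribosome, whose proteins are encoded by separate nuclear genes, it was 20 of 77. Of the mTORC1 and S6 kinase genes it was 2 of 20, and their median deviation was 0.31 in cKO replicate 2, where that of the ribosomal protein genes was -0.91. That list also holds the kinase genes Rps6ka2 and Rps6ka6, so it is wider than mTORC1 alone. These counts stand beside 18.8% of all tested genes.

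**Figure D5:**
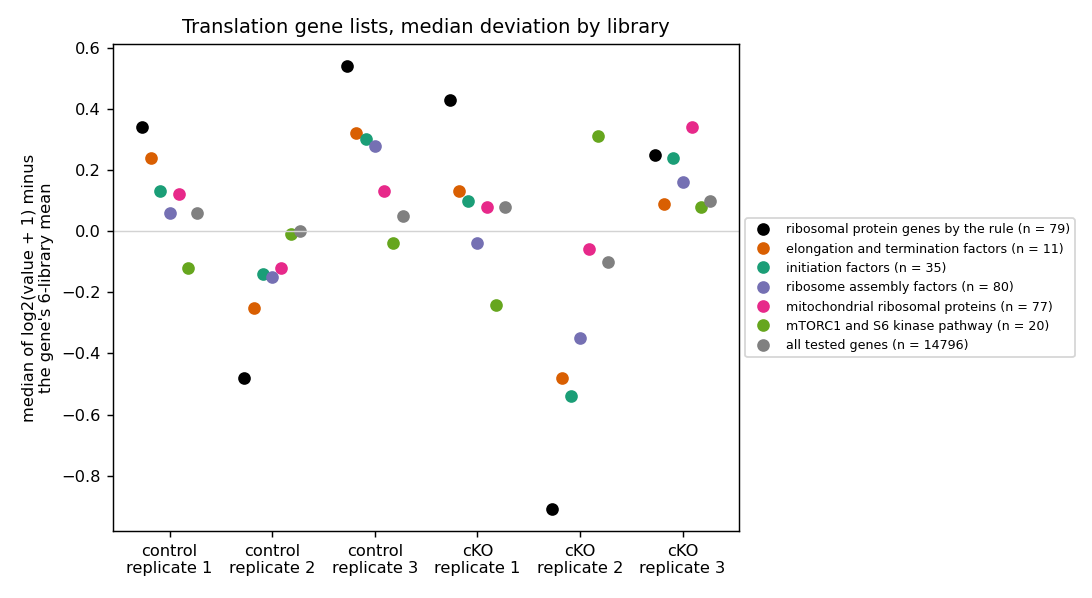
Median over each gene list of log2(value + 1) minus the gene's mean over the 6 libraries, by library; each list has its own colour and n is its tested genes. Ribosomal protein genes span -0.91 to 0.54, initiation factors -0.54 to 0.30, and mTORC1 and S6 kinase genes are highest in cKO replicate 2.

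Between the labels no gene of these lists passed the adjusted threshold in limma. Fitted differences were below 0 in 24 of 35 initiation factors, 7 of 11 elongation and termination factors, 51 of 80 assembly factors and 11 of 15 polymerase I genes, with medians of -0.21, -0.17, -0.18 and -0.11. Without both libraries numbered 2 these medians were -0.04, -0.15, -0.14 and -0.29. They were below 0 in 7 of 20 mTORC1 and S6 kinase genes and in 24 of 77 mitochondrial ribosomal protein genes, with medians of 0.04 and 0.17, which were 0.01 and 0.16 without both libraries numbered 2. Gar1, which takes part in the modification of ribosomal RNA, had the smallest unadjusted p of these, 0.0571, with a log2 difference of -1.44 (SE 0.67, limma adjusted p = 0.9996). It was at 8.20, 11 and 12.4 under the label control and at 5.33, 0.909 and 5.22 under the label cKO, so every library labelled cKO lay below those labelled control. That held for 1 of 80 assembly factors and 2 of 77 mitochondrial ribosomal protein genes, against 2.26% of all tested genes. The labels separated with cKO higher in 1 of 35 initiation factors, 2 of 20 mTORC1 and S6 kinase genes and 2 of 77 mitochondrial ones. For all tested genes that share was 2.45%. Mrps6, of the mitochondrial small subunit, was at 13.7, 16.0 and 61.3 and at 11.2, 5.45 and 11.7, with control replicate 3 far above the rest. Among initiation factors Eif1b had a log2 difference of 0.66 (SE 0.46) and Eif3e of -0.44 (SE 0.35).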

How the data were processed

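Bulk RNA sequencing was analysed from 6 libraries, 3 per label. Per the submitters' processing notes, reads went through Trimmomatic, HISAT2, featureCounts and edgeR on build mm10. Versions, annotation, strand setting and how multi-mapped reads were counted: not given in the sources used here. The deposited values are a depth-scaled signal, CPM rescaled per library by the authors (column totals 961962 to 1027958), where the design had assumed plain CPM. Whole reads were recovered by dividing each column by its smallest value (at least 99.9836% of values lay within 0.001 of an integer). Nothing in the labels ties each library to its own animal, so p-values reflect only how these samples spread, and that spread may be technical.

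The main test was limma 3.58.1 (R 4.3.3, trend) on log2(value + 1) for the 14796 genes at 1 or more in 3 or more libraries, with Benjamini-Hochberg adjustment over all of them. Fold changes on this scale understate those of low genes. 79 of 84 members passed; Rpl10l, Rpl39l, Rpl3l, Rpl26 and Rpl30 did not. Lengths, positions and shared 50-base words come from GENCODE M21 (GRCm38), using the transcript of best APPRIS rank, then the shortest. edgeR 4.0.16 and DESeq2 1.42.0 were run on recovered reads. The fit was tested on simulated data.

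The members, the lists, the design and the naming rule were chosen with earlier results of these data known. Named members are those of fixed structural roles and paralog pairs, the 6 of highest mean, the 6 of highest mean per kilobase, the 6 of smallest unadjusted p per direction, the 4 of largest and of smallest SD, and those at 0, plus 2 genes per pathway list. Outside it, Rpl26, Rpl30, Rpl34, Rpl35a, the pseudogene and retrotransposed rows and the start windows shown were picked with their values in view. The comparison of libraries numbered 2 with the rest was likewise made after the data were seen and has no test. Some genes that the rule would name are not reported here.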

Additional observations from a re-analysis of the deposited data

How the results depend on the processing

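Under all alternatives run for the whole table, 0 ribosomal protein genes passed the adjusted threshold, and 0 of all genes did except 1 with DESeq2. The median log2 difference over the members stayed between -0.22 and -0.17 under other pseudocounts, filters, scalings, weights and count models, and leaving out 1 library moved it from -0.54 to 0.20. The number of members below 0, 62 in the main result, was 46, 77 and 41 without control replicates 1, 2 and 3 and 70, 11 and 69 without cKO replicates 1, 2 and 3. Of 42 named members tested, 22 changed sign without cKO replicate 2, 10 without control replicate 3, 8 without control replicate 2 and at most 7 under each other setting. Adding the 4 genes outside the rule gave a median of -0.18, and leaving out alternative paralogs or members with a mean under 20 gave -0.20 each. Deviations from the group means correlated at 0.49, 0.30 and 0.03 between libraries of the same number, for numbers 1 to 3. Between control and cKO libraries of different numbers the correlations ran from -0.40 to 0.03. Whether libraries of the same number shared a batch was not tested. With a replicate block the median was -0.20 and 0 members were called.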
